A study of Homo sapiens with 2 samples.

Results

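The 1336 gene-start windows of chromosome 9 were examined by position, out of 36814 windows counted across the genome of K562 cells. They were taken by their start coordinate (build hg38) in 3 classes. The short arm held the 401 windows that start below 43000000, the long arm up to ABL1 held 731 windows that start from there to 130700000, and ABL1 and beyond held the remaining 204 windows, from the ABL1 window to the end of the chromosome. The measure compared was the number of reads per kilobase (kb) of bases that a window does not share with any other window. Of the 1336 windows, 878 were matched to a gene of the RefSeq table for GRCh38.p14, and 142 had under 200 unshared bases and were left out of levels, which left 360, 669 and 165 windows in the 3 classes.

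The data are 2 libraries of precision run-on sequencing (PRO-seq) from K562, an established human cell line from chronic myelogenous leukaemia. One library came from untreated cells and the other from cells given 0.1% DMSO, a drug solvent, for 1 h; all cells were grown in RPMI with serum. Permeabilised cells extended their engaged polymerases with biotin-labelled nucleotides for 5 min at 30 °C, and the labelled RNA was pulled down and sequenced. Each treatment had 1 library, so no value has a replicate check and no p-value is given, and windows are not replicates of a condition. Intervals are exact at 95%, and since reads carry no molecular identifiers they cover counting error only.

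Chromosome 9 carries ABL1, a tyrosine kinase gene that is joined to BCR of chromosome 22 in the Philadelphia translocation. The breaks of that translocation lie inside ABL1, so most of the gene and what follows it towards the chromosome end is moved. The short arm carries CDKN2A, CDKN2B and MTAP beside the type I interferon cluster in 9p21, a segment that is often lost in leukaemia and that K562 is known to have lost in part. K562 is also known to hold several copies of the BCR-ABL1 fusion; no copy number was measured here. In PRO-seq, reads mark engaged polymerase, which gathers near active gene starts.

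The libraries held 2136291 reads untreated and 4154920 with DMSO, of which 4 windows over ribosomal RNA took 71.5% and 42.2%. Outside ribosomal RNA and mitochondrial windows, chromosome 9 held 21123 of 525322 untreated reads (4.02%) and 96757 of 2249790 DMSO reads (4.30%). All 9 usable windows of the 11 erythroid marker genes, among them those of the globin and glycophorin genes, had reads in both libraries, with medians of 79 and 304 reads. Of 20 usable windows of lymphoid, myeloid, epithelial, fibroblast, hepatocyte and neural markers, 9 had reads in both. Their medians per list were 0 or 1 untreated read. At least 10 reads in both libraries were found in 2 lymphoid windows and in 1 of the epithelial, fibroblast and hepatocyte list. The highest untreated counts of these 2 lists were 40 and 30. The highest count among all 20 was 514 DMSO reads, in a neural marker's window. No neural marker had more than 1 untreated read.

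The upstream sequences of 8 windows are shown because these windows carry the results on levels. NUP214 and FAM78A are dense windows that follow ABL1, chosen after their values were seen. The others are, in each class, the 2 densest by the mean of both libraries' densities, each divided by its library density, among the remaining windows that hold their gene's entry of the RefSeq promoter table. Each sequence is the 250 bases before the gene's start in the RefSeq table for GRCh38.p14, read 5′ to 3′ on the strand of the gene. Capitals mark TATAA (the core of a TATA box), CCAAT (the CCAAT box), GGGCGG (the GC box) or GATAA, each searched on both strands. From ABL1 on these are NUP214 (chr9:131125336-131125585, plus strand), FAM78A (chr9:131276511-131276760, minus strand), TUBB4B (chr9:137241037-137241286, plus strand) and SNHG7 (chr9:136728185-136728434, minus strand).
NUP214: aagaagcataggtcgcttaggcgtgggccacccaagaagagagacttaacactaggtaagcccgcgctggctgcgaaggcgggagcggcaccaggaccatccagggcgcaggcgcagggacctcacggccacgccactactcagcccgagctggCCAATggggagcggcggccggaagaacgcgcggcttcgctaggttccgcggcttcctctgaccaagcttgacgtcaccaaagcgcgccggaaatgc
FAM78A: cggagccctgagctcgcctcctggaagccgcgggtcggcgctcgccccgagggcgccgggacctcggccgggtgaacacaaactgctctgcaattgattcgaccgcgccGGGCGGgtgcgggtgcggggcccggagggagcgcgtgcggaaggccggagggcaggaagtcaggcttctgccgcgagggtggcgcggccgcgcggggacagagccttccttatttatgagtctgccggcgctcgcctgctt
TUBB4B: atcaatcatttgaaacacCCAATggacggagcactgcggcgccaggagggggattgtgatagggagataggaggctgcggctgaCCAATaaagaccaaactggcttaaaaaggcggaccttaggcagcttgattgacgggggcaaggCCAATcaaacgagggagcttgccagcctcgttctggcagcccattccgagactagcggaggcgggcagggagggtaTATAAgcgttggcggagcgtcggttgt
SNHG7: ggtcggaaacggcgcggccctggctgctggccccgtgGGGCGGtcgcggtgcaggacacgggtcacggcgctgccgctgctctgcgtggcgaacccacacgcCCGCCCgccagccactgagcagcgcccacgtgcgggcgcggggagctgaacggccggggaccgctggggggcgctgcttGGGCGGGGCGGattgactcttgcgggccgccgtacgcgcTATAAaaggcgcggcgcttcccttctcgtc
From the long arm before ABL1 these are ANP32B (chr9:97983091-97983340, plus strand) and PIP5KL1 (chr9:127930778-127931027, minus strand), and from the short arm RPS6 (chr9:19380237-19380486, minus strand) and VCP (chr9:35072626-35072875, minus strand).
ANP32B: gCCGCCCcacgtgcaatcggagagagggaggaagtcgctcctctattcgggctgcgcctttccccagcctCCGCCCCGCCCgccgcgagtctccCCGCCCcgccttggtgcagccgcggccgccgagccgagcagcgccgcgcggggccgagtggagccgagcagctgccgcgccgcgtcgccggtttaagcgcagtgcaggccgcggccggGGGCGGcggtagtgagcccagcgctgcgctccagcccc
PIP5KL1: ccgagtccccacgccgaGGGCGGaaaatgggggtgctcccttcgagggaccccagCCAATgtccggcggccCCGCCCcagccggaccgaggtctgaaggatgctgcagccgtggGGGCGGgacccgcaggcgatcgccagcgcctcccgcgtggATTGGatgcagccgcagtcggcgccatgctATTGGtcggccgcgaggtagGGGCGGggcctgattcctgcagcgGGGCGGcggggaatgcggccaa
RPS6: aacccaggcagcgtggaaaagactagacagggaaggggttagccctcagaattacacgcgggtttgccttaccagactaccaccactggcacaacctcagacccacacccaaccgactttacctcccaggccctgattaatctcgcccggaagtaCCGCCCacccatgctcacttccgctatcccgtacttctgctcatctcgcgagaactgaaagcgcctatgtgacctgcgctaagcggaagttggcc
VCP: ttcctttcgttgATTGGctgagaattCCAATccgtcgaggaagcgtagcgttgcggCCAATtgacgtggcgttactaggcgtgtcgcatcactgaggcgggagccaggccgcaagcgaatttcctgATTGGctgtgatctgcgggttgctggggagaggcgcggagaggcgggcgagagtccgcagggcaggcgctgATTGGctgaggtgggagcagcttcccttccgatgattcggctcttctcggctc
TUBB4B and SNHG7 both hold TATAA close to the start, with its first base 27 and 30 bases before it, and the other 6 hold none. VCP holds CCAAT or its complement 5 times, and TUBB4B and PIP5KL1 hold it 3 times each. ANP32B and PIP5KL1 hold GGGCGG or its complement 5 times each, and SNHG7 4 times. In ANP32B, 2 of these overlap by a base, as do 2 in SNHG7. GATAA, the core letters of the site of the erythroid factor GATA1, occurs in none of the 8.

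Read density was lowest on the short arm and highest from ABL1 on in both libraries. The short arm held 1.61 untreated reads per kb (interval 1.55 to 1.67) and 7.70 DMSO reads per kb (7.57 to 7.83). The long arm up to ABL1 held 3.25 (3.19 to 3.31) and 15.2 (15.1 to 15.3), close to the 3.40 and 14.6 of all windows outside ribosomal RNA and mitochondria, called the library density here. ABL1 and beyond held 10.2 (10.0 to 10.5) and 44.7 (44.3 to 45.2). The ratio of ABL1 and beyond to the remaining long arm was thus 3.15 untreated (3.05 to 3.24) and 2.94 with DMSO (2.90 to 2.98), and its ratio to the short arm 6.36 (6.10 to 6.64) and 5.81 (5.70 to 5.93).

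**Figure D1:**
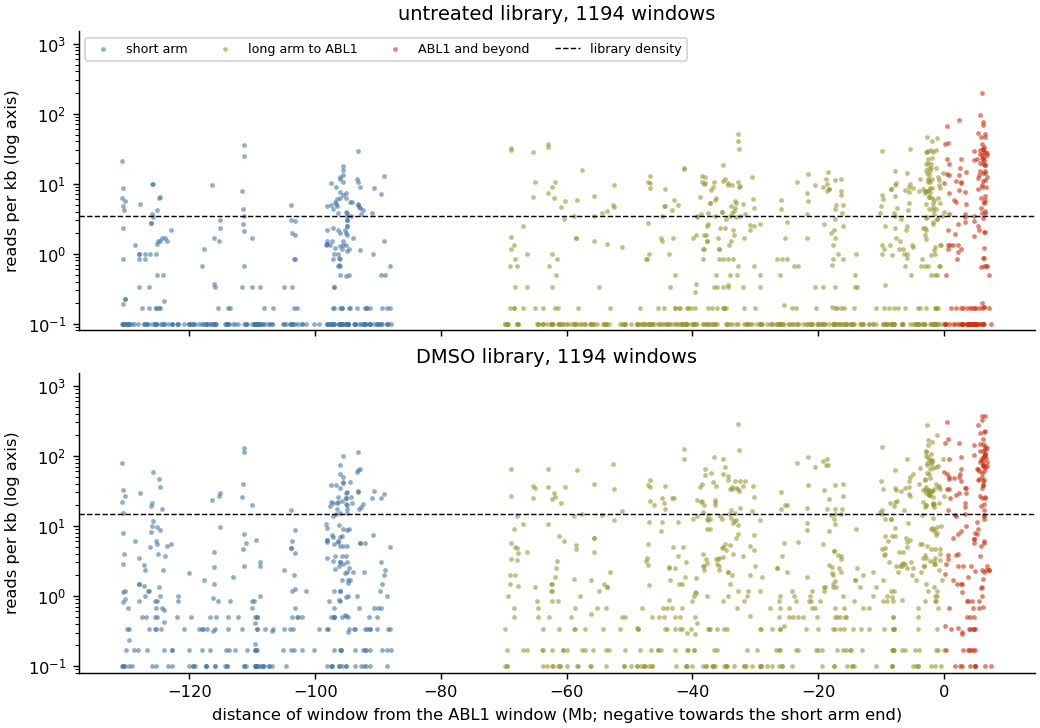
Reads per kb of unshared bases (log axis, 0 drawn at 0.1) of the 1194 chromosome 9 windows with at least 200 unshared bases, by distance from the ABL1 window in Mb, for each library. Colours are the 3 classes and the dashed line is the library density, 3.40 reads per kb untreated and 14.6 with DMSO. The points after ABL1 reach highest, and the gap without points includes the centromere.

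The typical window differed between the classes as the sum did. The median window of the short arm held 0.167 untreated and 0.849 DMSO reads per kb, that of the long arm up to ABL1 0.333 and 2.50, and that of ABL1 and beyond 2.47 and 14.2, against 0.167 and 1.67 over all windows. A read in both libraries was found in 179 of 360 short arm windows (49.7%), 381 of 669 long arm windows (57.0%) and 119 of 165 windows of ABL1 and beyond (72.1%), where 53.9% of all windows had one. Density lay above the library density in both libraries in 51 (14.2%), 156 (23.3%) and 71 (43.0%) windows of the 3 classes, against 20.8% of all windows. The upper quartile of ABL1 and beyond stood at 14.3 untreated and 65.3 DMSO reads per kb, and that of the long arm before it at 3.83 and 16.8.

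**Figure D2:**
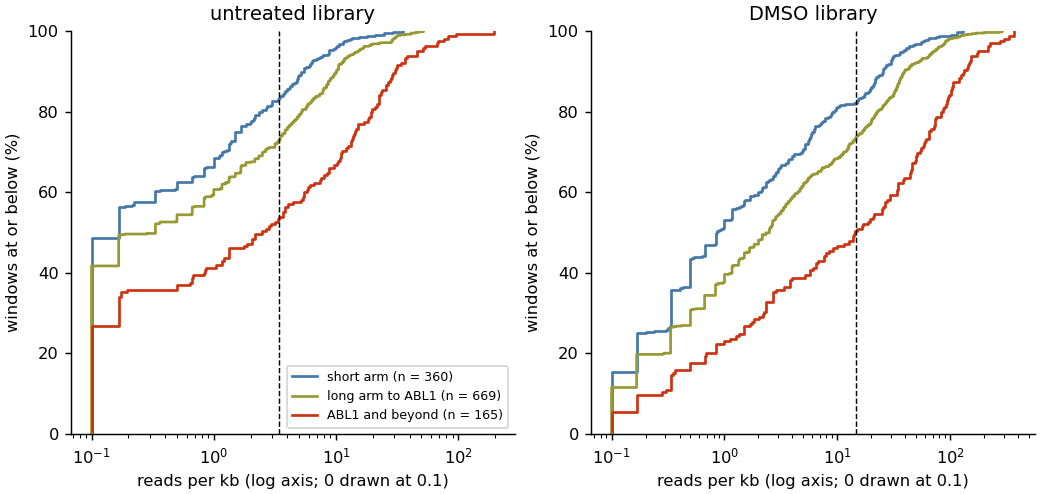
Cumulative share of windows (percent) at or below a given number of reads per kb (log axis, 0 drawn at 0.1) in each class and library, with the library density as a dashed line. The curve of ABL1 and beyond lies to the right of the other 2 throughout, and the short arm curve to the left.

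Set against whole chromosomes, the short arm was sparse and the segment from ABL1 dense. Of the 22 other chromosomes (chromosome Y was not used), 20 lay above the short arm in each library, 8 lay above the long arm up to ABL1, and none lay above ABL1 and beyond. The densest of them was chromosome 19, with 6.28 untreated and 27.4 DMSO reads per kb. When the last 7.50 Mb of windows of each of 23 chromosomes were compared, that of chromosome 9 ranked 1 in both libraries by pooled density, and 3 untreated and 2 with DMSO by the median window. As a ratio to the rest of the same chromosome it ranked 2 in both libraries, at 3.83 untreated and 3.57 with DMSO. The windows of chromosome 22 up to BCR held 12.2 and 61.8 reads per kb, 1.19 times (1.15 to 1.22) and 1.38 times (1.36 to 1.40) the density of ABL1 and beyond. By the median window, 2.50 and 7.50 reads per kb, they lay close to it untreated and below it with DMSO.

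The rise began before ABL1. In bins of 10 Mb the 110 to 120 Mb bin held 1.76 untreated and 9.22 DMSO reads per kb, the 120 to 130 Mb bin 5.76 and 27.0, and the last bin, from 130 Mb, 9.83 and 43.1. A stretch of the long arm just before the border, as long as the segment from ABL1 on, held 150 usable windows with 6.67 untreated and 31.4 DMSO reads per kb. Against this neighbour the ratio of ABL1 and beyond was 1.53 untreated (1.48 to 1.59) and 1.43 with DMSO (1.40 to 1.45). The median windows were closer still untreated, 2.47 against 2.43 reads per kb, and stood at 14.2 against 10.6 with DMSO. Above the library density in both libraries lay 43.0% of windows after the border and 41.3% before it. The 2 stretches differed more in their densest windows: 13 after and 3 before the border exceeded 10 times the library density untreated, and 14 and 4 did so with DMSO. This comparison was chosen after the data were seen.

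**Figure D3:**
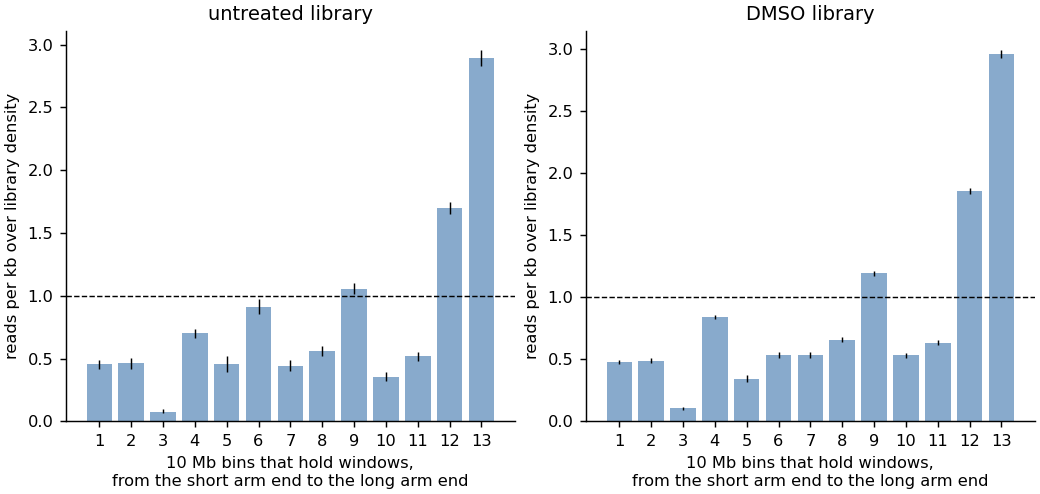
Reads per kb over the library density in the 10 Mb bins of chromosome 9 that hold windows, from the short arm end (1) to the long arm end (13), with 95% counting intervals as error bars; the dashed line is the library density. The third bin, which holds 9p21, is lowest and the last 2 bins are the highest in both libraries.

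Other features of the windows moved with the classes. Windows per Mb were 9.40 on the short arm, 10.5 on the long arm up to ABL1 and 27.2 from ABL1 on, and 32.7%, 32.0% and 53.9% of windows shared a base with another. Windows of protein-coding genes made up 51.1%, 54.6% and 68.6% of the classes. Within protein-coding windows the densities were 2.11, 4.15 and 11.7 reads per kb untreated and 11.4, 21.6 and 52.1 with DMSO, in the same order as over all windows. Within windows that share no base they were 1.51, 3.09 and 9.81 untreated and 7.48, 14.7 and 43.3 with DMSO. The part of gene density in the class levels was not tested.

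The 5 windows of lowest position after the border showed no uniform level. The window of ABL1 (130710016 to 130716015, plus strand), centred on the gene's upstream start, had 62 untreated and 349 DMSO reads, 10.3 (7.92 to 13.2) and 58.2 reads per kb. It lies 5′ of most of the gene, and its position relative to the break of K562 was not determined. QRFP, a neuropeptide gene whose window (130893813 to 130899812, minus strand) begins 6138 bases after the RefSeq end of ABL1, had 221 and 921 reads, 36.8 (32.1 to 42.0) and 154 reads per kb. AL161733.1 and FIBCD1 (a chitin-binding receptor gene) share bases with each other. They had 0 untreated reads each, and 2 and 11 with DMSO. LAMC3, a laminin chain gene, had 0 and 1 read. The high ABL1 and QRFP windows are thus followed by 3 that are near 0.

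NUP214, a nuclear pore protein gene that is itself a fusion partner in leukaemia, was the densest of the windows from ABL1 to FAM78A. Its window (131122586 to 131128585, plus strand) had 402 untreated and 1807 DMSO reads, 67.0 (60.6 to 73.9) and 301 reads per kb, which is 19.7 times the library density untreated. Before it, AIF1L had 3 and 17 reads. AL157938.2 and AL157938.3, whose windows lie inside NUP214, had 83 and 204 and 136 and 325 reads. FAM78A, 38848 bases past the RefSeq end of NUP214, had 228 and 1048 reads, 38.0 (33.2 to 43.3) and 175 reads per kb. Density then dropped within one window: AL157938.4, which overlaps FAM78A, had 7 and 20 reads, PLPP7 8 and 23, and PRRC2B 13 and 100. The windows after NUP214 up to PLPP7 were named after their values were seen.

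**Figure D4:**
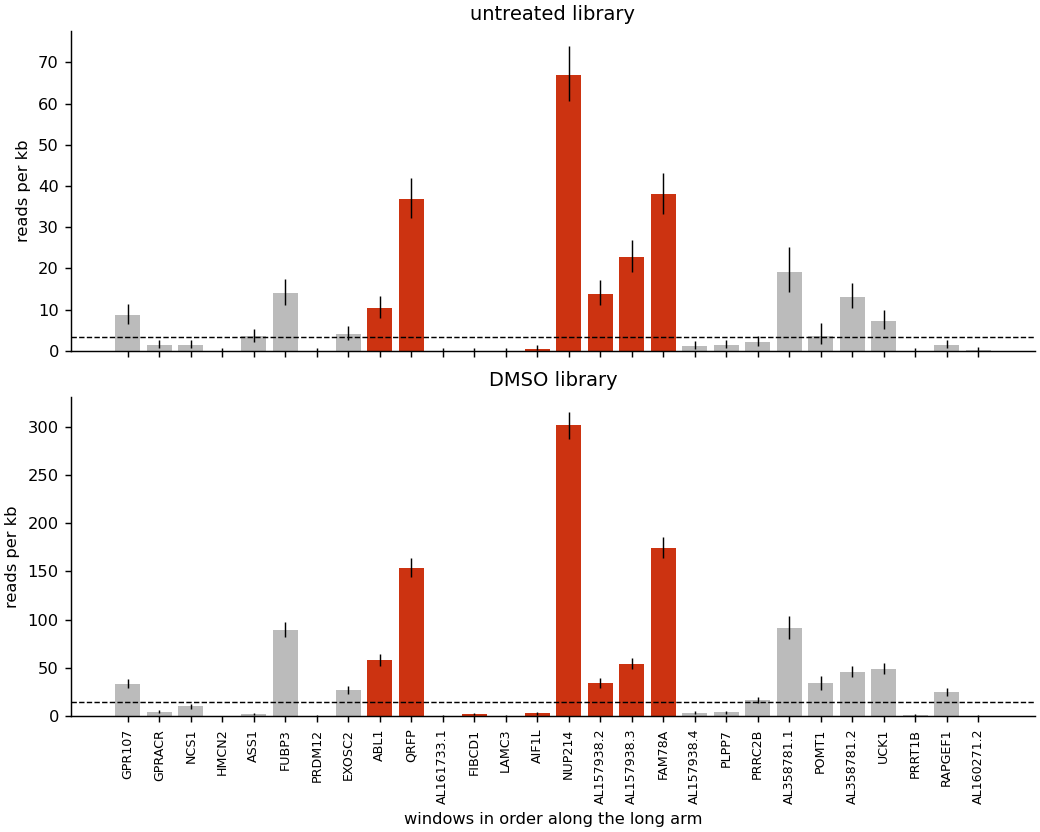
Reads per kb of the windows before, within (red) and after the stretch from ABL1 to FAM78A, in order along the chromosome, with 95% counting intervals as error bars and the library density as a dashed line. ABL1, QRFP, NUP214 and the 3 windows after NUP214 stand above the line in both libraries, and AL161733.1 to AIF1L lie near 0.

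As a group the 7 windows from ABL1 to NUP214 held 16.8 untreated and 76.0 DMSO reads per kb, 1.71 times (1.58 to 1.85) and 1.77 times (1.71 to 1.84) the density beyond NUP214. That excess rests on 1 window: without NUP214, and without the window of most reads beyond it, the ratios were 0.902 and 0.931. By the median window the 7 also lay lower, with 0.50 against 2.57 untreated and 2.83 against 14.5 with DMSO. The 4 windows from NUP214 to FAM78A, a stretch chosen after the data were seen, all lay above the library density in both libraries. They held 35.4 and 141 reads per kb, 3.74 times (3.48 to 4.02) and 3.38 times (3.26 to 3.50) the density beyond FAM78A.

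On the other side of the border, the 4 nearest windows were as mixed. EXOSC2, a subunit of the RNA exosome, had 24 untreated and 162 DMSO reads, and FUBP3, a single-strand DNA binding protein gene, 84 and 537. PRDM12, a gene of sensory neurons, had 0 and 1 read. ASS1, the argininosuccinate synthase gene of the urea cycle, had 21 and 10. Windows with many reads and windows near 0 thus lay on both sides.

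From ABL1 on, density was highest at the chromosome end. The first step below holds the windows from ABL1 to FAM78A. In 2 Mb steps from 130.7 Mb the pooled density was 9.85 untreated and 44.0 DMSO reads per kb, then 6.34 and 20.1, 9.53 and 37.9, and in the last step 14.2 and 71.0. The median windows were 2.02 and 15.4, 0.50 and 2.66, 0.167 and 5.71, and 8.83 and 53.6 reads per kb. Without NUP214 the first step held 7.36 and 32.8 reads per kb. Without RALGDS the second held 3.62 and 15.4, and without DNLZ the third held 6.89 and 32.6. In the last step, which holds the most closely spaced genes, leaving out the window of most reads gave 13.1 and 62.6.

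Besides NUP214, single windows from ABL1 on held many reads. DNLZ, a mitochondrial chaperone partner gene (136360745 to 136366744, minus strand), had 580 untreated and 1291 DMSO reads. RALGDS, an exchange factor for the GTPase Ral (133146335 to 133152334, minus strand), had 493 and 909. TUBB4B, a beta tubulin gene (137238287 to 137244286, plus strand), had 275 and 2212, and SNHG7, a host of small nucleolar RNAs (136725185 to 136731184, minus strand), 222 and 2216. AJM1, named after its values were seen, had 296 and 749 in 4309 unshared bases. The order of these windows differed between the libraries: DNLZ and RALGDS had the most reads of the class untreated, and SNHG7 and TUBB4B with DMSO. TMEM250, a membrane protein gene with 3645 unshared bases, had 195 and 1008 reads, or 53.5 untreated reads per kb. AL355987.2 had the highest density, 198 untreated reads per kb (173 to 225), but from 226 reads in 1143 unshared bases beside CCDC183.

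On the long arm before ABL1 the leading windows were spread over many gene functions. ANP32B, a histone chaperone gene (97980341 to 97986340, plus strand), had 224 untreated and 1246 DMSO reads, 51.9 and 289 reads per kb of its 4316 unshared bases. PIP5KL1, a lipid kinase-like gene, had 174 and 1009 reads in 3717 bases. C9orf16 (BBLN in RefSeq) had 175 and 1012, and PSMD5, an assembly chaperone gene of the proteasome, 175 and 791. AL590369.1 beside ASB6 had 76 and 338 reads in 1694 bases, and ZDHHC12 13 and 28 in only 317. The 10 windows of most reads held 17.5% of this class's untreated reads and 17.6% of its DMSO reads, against 41.4% and 39.9% in ABL1 and beyond, a class of 165 usable windows against 669.

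On the short arm the highest windows reached 35.4 untreated and 130 DMSO reads per kb. RPS6, a protein of the small ribosomal subunit (19377237 to 19383236, minus strand), had 119 untreated and 544 DMSO reads in 4786 unshared bases. AL391834.2, which shares bases with it, had 81 and 297 in 2291. VCP, an ATPase that extracts proteins for degradation (35069628 to 35075627, minus strand), had 93 and 605. AL513165.1 had 176 and 684 and AL928970.1, near the tip of the arm, 126 and 477. JAK2, the kinase of the erythropoietin receptor, had 60 and 347 reads. Of 30 usable windows in the segment of 9p24 around JAK2 and the PD-L1 gene, 5 lay above the library density in both libraries (16.7%, against 20.8% of all windows). The others named there were KANK1 (34 and 160), PUM3 (31 and 178), ERMP1 (37 and 280) and UHRF2 (10 and 104).

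The 20 to 30 Mb bin, which holds 9p21, was the sparsest of the chromosome. It held 0.265 untreated (0.213 to 0.326) and 1.51 DMSO reads per kb (1.38 to 1.65), and the next bin, 30 to 40 Mb, held 2.38 and 12.2. The longest run of usable chromosome 9 windows without an untreated read lay in it: 23 windows from HACD4 to CDKN2B-AS1, 21028641 to 21997138, with 131 kb of unshared bases. A count of 0 over that length allows up to 0.0229 reads per kb. The DMSO library held 97 reads in 15 of the 23 windows, 0.740 reads per kb. Of these reads 38 lay in KLHL9, a ubiquitin ligase adaptor gene, and 18 in CDKN2A-DT, so reads were present there in 1 library.

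The 23 windows include 16 of the interferon genes, which are silent in most unstimulated cells. Over all 17 interferon windows, IFNK included, there were 14 untreated reads, all in IFNK, and 23 DMSO reads, of which IFNK had 6. IFNK lies outside the run, at 27521314 to 27527313. IFNA7 had 0 and 2 reads and IFNA16 and IFNE 0 and 3 each. Of the tumour suppressors, CDKN2B, whose product inhibits the kinases CDK4 and CDK6, had 2 and 6 reads, while the windows of CDKN2A and MTAP have 0 unshared bases and so no level. To either side, MLLT3 had 0 and 5 reads, FOCAD 2 and 4, TUSC1 2 and 14 and CAAP1 18 and 100. Of 15 usable windows in the wider 9p21 list none lay above the library density in both libraries, where 20.8% of all windows did. PLAA and IFT74 have only 204 unshared bases each, with 1 and 1 and 0 and 1 read. CDKN2A-DT, CDKN2A, CDKN2B, MTAP, MLLT3, FOCAD and TUSC1 were named after their values were seen, for their place in 9p21.

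The next long runs without an untreated read differed in what they hold. From DMAC1 to TYRP1, 16 windows over 4.80 Mb of the short arm had 26 DMSO reads in all. From AL359636.1 to OR5C1, 15 windows of the long arm, in a cluster of olfactory receptor genes, had 24. The 25 olfactory receptor windows of the chromosome together held 4 untreated and 68 DMSO reads, and 23 of them had a DMSO read. None lay above the library density in both libraries, and the highest of those named was OR13J1 with 0 and 10 reads. DMSO density in the 9p21 run, 0.740 reads per kb with 38 of the 97 reads in KLHL9, compares with 0.306 and 0.304 in these 2 runs. A shorter run of 9 windows from ASTN2 to AC006288.1 on the long arm had 52 DMSO reads, 0.963 reads per kb.

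Next to the centromere, windows belong to gene families with near-identical copies, and their levels are uncertain because a read may fit several copies. Of 41 usable windows of these families 8 lay above the library density in both libraries (19.5%, near the 20.8% of all windows). FAM27C had 181 untreated and 385 DMSO reads, FOXD4L4 63 and 210, FOXD4 at the tip of the short arm 39 and 145, and GLIDR 23 and 149. FAM27E3 had 35 and 34 reads in 943 unshared bases. The 4 windows on either side of the class border there, among them SPATA31A5 with 0 and 2 reads and BX088651.4 with 4 and 30, held few reads. The other 6 of these 8 had at most 1 untreated and 2 DMSO reads each.

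Listed genes of basic cell functions were often dense. The lists were chosen with earlier results of these data known. The share of all windows is not matched for gene type: protein-coding genes make up 52.2% of all windows. Both limits hold for every gene list given here. Of 17 usable windows of ribosome and translation genes, 12 lay above the library density in both libraries (70.6%, against 20.8% of all windows), with a median of 10.2 untreated and 27.2 DMSO reads per kb. DPH7, of the enzymes that modify elongation factor 2, had 154 and 789 reads, SURF6, a nucleolar protein gene, 135 and 575, and MRPL41 of the mitochondrial ribosome 41 and 105. Of 23 cell cycle and DNA repair windows 16 did so (69.6%; medians 5.50 and 27.6). CKS2, a subunit of cyclin-dependent kinases, had 102 and 756 reads, and RAD23B, of nucleotide excision repair, 63 and 475. Of 14 windows of endoplasmic reticulum and stress genes 9 did so (64.3%; medians 8.92 and 30.9). TOR1A, an ATPase of the reticulum lumen, had 74 and 431 reads and thioredoxin, TXN, 57 and 413. The chaperone gene HSPA5 had 10 and 16 reads in 319 unshared bases.

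Transcription and chromatin genes and RNA binding and nuclear pore genes followed, and zinc finger genes lay below the share of all windows. Of 30 windows of transcription and chromatin genes 14 lay above the library density in both libraries (46.7%, against 20.8% of all windows; medians 3.33 and 24). CDK9, the kinase that releases paused polymerase, had 95 and 691 reads, and SNAPC4, of the factor that starts small nuclear RNA genes, 118 and 710. The zinc finger factor genes ZBTB34 and ZBTB5 had 70 and 407 and 64 and 382. Of 13 windows of RNA binding and nuclear pore genes 6 did so (46.2%; medians 5.27 and 16.7). Besides NUP214, PTBP3, a splicing regulator, had 89 and 444 reads, SPOUT1 69 and 495, and GLE1, an export factor, 92 and 392. Of 12 zinc finger (ZNF and ZFP) windows, all on the long arm before ABL1, 2 did so (16.7%). ZNF79 had 50 and 193 reads, ZNF510 29 and 101, ZNF782 9 and 79 and ZNF484 11 and 20.

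The order of the classes within these lists was not fixed. Pooled over the 7 ribosome and translation windows from ABL1 on, density was 23.7 untreated and 156 DMSO reads per kb, against 10.7 and 50.6 over 5 long arm windows before it and 9.36 and 44.8 over 5 on the short arm. Without the window of most DMSO reads in each class these were 19.6 and 89.6 (SNHG7 left out), 8.04 and 32.0 (SECISBP2, chosen by this setting) and 3.72 and 19.8 (RPS6). For transcription and chromatin genes 10 windows from ABL1 on had 6.94 and 39.8 reads per kb and 12 before it 8.04 and 44.7. On the short arm 8 such windows had 3.04 and 22.6. With the same window left out in each class the values were 4.81 and 26.7 (SNAPC4), 6.86 and 34.1 (CDK9) and 1.70 and 15.4 (ZBTB5). Endoplasmic reticulum and stress genes had 14 and 92.0 over 4 short arm windows, 8.99 and 42.6 over 9 on the long arm before ABL1, and 15.1 and 26.4 in the only one from ABL1 on. The short arm value was 5.07 and 38.5 without VCP, and that of the long arm before ABL1 8.34 and 37.0 without TOR1A.

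Lineage genes were mixed. Of 11 usable windows of erythroid and blood group genes 4 lay above the library density in both libraries (36.4%). The share of all windows, 20.8%, applies to each list here. ABO, the blood group glycosyltransferase gene, had 101 and 331 reads, and AK1, adenylate kinase of red cells, 47 and 213. TMOD1, which caps actin in the red cell skeleton, had 27 and 259. NFX1, a transcription factor gene and not a red cell marker, had 61 and 232 and is counted among these 4. Of 14 windows of ABL and leukaemia genes 5 did so (35.7%), led by NUP214 and by TRAF2, an adaptor of tumour necrosis factor receptors, with 186 and 231. Of 29 neural windows 4 did so (13.8%), and their median was 0 untreated and 2.33 DMSO reads per kb. These were led by DNM1, dynamin 1, with 119 and 848, by NRARP, an inhibitor of Notch signalling, with 90 and 436, by LHX3 with 79 and 368 and by NACC2 with 72 and 385. Of 29 immune and secreted gene windows 4 did so (13.8%), among them CARD9, an adaptor of innate immunity, with 159 and 496, LCN12 with 48 and 165 and IL11RA with 31 and 141. Of 27 windows of genes known from other organs 3 did so (11.1%): CEL, a pancreatic lipase, had 48 and 174, ADAMTS13 40 and 165 and TPM2, a muscle tropomyosin, 38 and 152. TLN1 had 1 and 7 reads in 402 unshared bases.

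Of 5 usable windows of microRNA hosts 2 lay above the library density in both libraries (40%, against 20.8% of all windows). A read was found in 4 of them untreated and in 4 with DMSO. DNM1, which hosts miR-199b on its opposite strand, led with 119 and 848 reads, followed by MIR600HG with 61 and 196 and MIR181A2HG with 13 and 40. MIR31HG, which lies in 9p21, had no read in either library, over 6000 unshared bases. EGFL7, the host of miR-126, had 1 and 2 reads in 1566, HNRNPK 0 and 2 in 94 and AOPEP 0 and 2 in 125. The last 2 are too short for a level.

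Density by the strand of the gene differed most from ABL1 on. From ABL1 on, the 85 windows of minus-strand genes held 12.4 untreated and 56.5 DMSO reads per kb, and the 80 of plus-strand genes 7.69 and 31.2. On the long arm before ABL1 the values were 3.08 and 14.3 for minus and 3.42 and 16.1 for plus. Those of the short arm were 1.66 and 8.18 for minus and 1.55 and 7.15 for plus. Among the windows of most reads from ABL1 on, DNLZ, RALGDS and SNHG7 are on the minus strand and TUBB4B on the plus strand. Densities by strand without them were not taken. The strand is that of the gene, and the strand setting is not given in the sources used here. Reads in bases shared with an opposite-strand window were absent from the counts too. IFT74 (plus) and PLAA (minus), with 204 unshared bases each, had at most 1 read in each library. The values are thus densities by gene strand and may hold reads of both strands. This includes minus-strand windows inside a plus-strand gene, such as AL157938.2 and AL157938.3 in NUP214.

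Upstream sequences were richer in G and C from ABL1 on. A RefSeq promoter lay inside 602 usable chromosome 9 windows, and its 250 upstream bases had a median GC content of 61.6% on the short arm (171 promoters), 63.2% on the long arm up to ABL1 (327) and 68.4% from ABL1 on (104), against 60.8% over the 13785 promoters inside usable windows of all chromosomes and 58.0% over all 35116 promoters of the table. GATAA on either strand was found in 15.8%, 16.8% and 4.81%, against 18.5% of promoters in usable windows and 20.4% of the table. CCAAT was found in 27.5%, 35.8% and 19.2% (34.4% and 32.0%) and TATAA in 12.3%, 16.5% and 11.5% (17.8% and 18.9%). GGGCGG was found in 53.2%, 56.9% and 56.7%, near the 51.4% of promoters in usable windows and above the 42.6% of the table. On chromosome 9 the 199 promoters of highest GC (69.6% to 86.8%) had 6.68 untreated and 37.0 DMSO reads per kb and the 203 of lowest GC 2.12 and 10.4. Within those of highest GC the density was 13.6 and 70.5 from ABL1 on (49 windows). On the long arm before ABL1 it was 5.93 and 34.9 (96 windows). The short arm had 2.12 and 11.8 at highest GC, below its own densities at middle GC (58.8% to 69.2%). At middle GC the other classes lay closer, with 7.69 and 34.5 from ABL1 on (43 windows). The long arm before ABL1 had 5.33 and 26.8 there (113 windows). By the median window the order at middle GC was the reverse, with 1.33 and 8.50 from ABL1 on against 2.50 and 12.6 before it. At lowest GC, with only 12 windows from ABL1 on, pooled untreated density was 5.93 against 1.99 on the long arm before it. Pooled DMSO density at lowest GC was higher from ABL1 on too. These 12 windows include TUBB4B (56.8% GC), with 275 untreated and 2212 DMSO reads, which weighs heavily on both pooled values. Densities at lowest GC without TUBB4B were not taken. The median windows at lowest GC were 0.522 against 0.167 untreated and 2.25 against 1.25 DMSO reads per kb. Windows with GGGCGG held 5.45 and 29.1 reads per kb and those without 3.53 and 17.3, and windows with GATAA 2.19 and 11.3 against 4.99 and 25.9 without. These letters are descriptions of the windows, and the part of GC content in the levels was not tested.

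The comparison of the 2 libraries asks how far the solvent control resembles untreated cells, and here it compares 2 libraries and not conditions. Ratios of DMSO to untreated reads were taken on the TMM scale, on which 3.81 DMSO reads equal 1 untreated read. They are given as log2 values relative to the median of the 6591 windows that passed a floor of 5 CPM (counts scaled to library size) on average and 100 reads in total; that median stood at 0.31. Of chromosome 9 windows 277 passed. The class medians were 0.09 on the short arm, 0.08 on the long arm up to ABL1 and 0.03 from ABL1 on, so no class as a whole stood far from the genome's median window.

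At least 2-fold higher with DMSO were 7 of 52 windows of the short arm, 15 of 156 of the long arm up to ABL1 and 8 of 69 from ABL1 on, where 7.04% of all windows passing the floor were. At least 2-fold lower were 1, 10 and 7, where 7.97% of all were. Without centring on the median the splits were 9 higher and 0 lower, 24 and 4, and 15 and 3. The share of all windows was not taken at that setting.

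**Figure D5:**
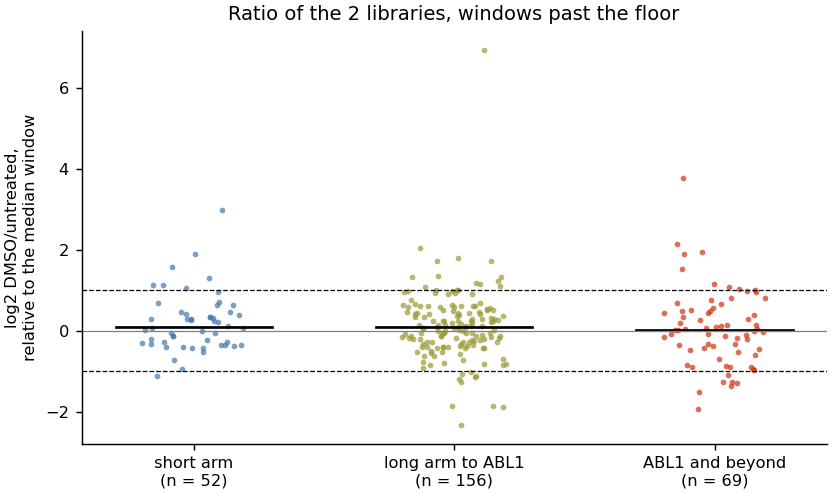
Log2 ratio of DMSO to untreated reads relative to the median window, for the 52, 156 and 69 windows of each class that passed the floor. Each point is a window, black bars are class medians (0.09, 0.08 and 0.03) and dashed lines mark 2-fold; points lie on both sides of 0 in each class.

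Among windows that passed the floor, the most extreme ratios from ABL1 on were of both signs. LRRC26, a subunit of potassium channels, had 4 untreated and 271 DMSO reads in 1933 unshared bases, a log2 ratio of 3.78 (2.47 to 5.73). QSOX2, a disulphide-forming oxidase gene, had 13 and 276 (2.15, interval 1.37 to 3.10), RAPGEF1, an exchange factor for Rap GTPases, 8 and 148 (1.94) and RNF208 7 and 126 (1.90). In the other direction TRAF2 had 186 and 231 reads, a ratio of -1.92 (-2.21 to -1.64). AL355987.2 stood at -1.51 with 226 and 375 reads, RALGDS at -1.35 (-1.51 to -1.19) and AL590226.1, which shares bases with EGFL7, at -1.30 with 72 and 138. Of the densest windows SNHG7 stood at 1.08 (0.88 to 1.29) and DNLZ at -1.08 (-1.23 to -0.94), while NUP214 (-0.07), QRFP (-0.18), ABL1 (0.25) and FAM78A (-0.04) lay near the median window.

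On the long arm before ABL1, NTRK2, a neurotrophin receptor gene (84665551 to 84671550, plus strand), had 0 untreated and 119 DMSO reads. With 3 reads in place of 0 and the DMSO count taken as exact, it was at least 8.41-fold higher relative to the median window. The counting interval of its log2 ratio begins at 2.75. AL162426.1 had 14 and 275 reads (2.04), PSMB7, a proteasome subunit, 6 and 101 (1.80) and TTLL11 8 and 127 (1.72). The lowest that passed the floor was ANXA1, an annexin that binds membranes, with 94 and 88 reads (-2.32, interval -2.77 to -1.90). PSAT1, an enzyme of serine synthesis, had 58 and 73 (-1.90, interval -2.42 to -1.38), AL391056.2 184 and 239 (-1.86) and FP326651.1 172 and 225 (-1.85). Both TMOD1 (1.02) and CIZ1 (-0.82), a cell cycle gene with 70 and 187 reads, were the extremes of their lists.

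On the short arm C9orf24 (SPMIP6 in RefSeq) had 4 and 157 reads, a ratio of 2.99 (1.67 to 4.95). SNAPC3, of the same small nuclear RNA factor as SNAPC4, had 9 and 160 (1.89), SMU1, a splicing factor, 8 and 115 (1.58) and FOCAD-AS1 10 and 118 (1.30). The 4 lowest were AL591926.2 (78 and 169 reads, -1.12), AL136366.1 (57 and 140, -0.94), AL354989.1 (31 and 89, -0.71) and HAUS6 (47 and 153, -0.53), a subunit of the spindle complex augmin. Among the 52 windows of this arm that passed the floor, AL591926.2 was the only one past 2-fold lower. IFNK, with 14 and 6 reads, did not pass it.

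Windows read in 1 library only were mostly read with DMSO: 126 on the short arm, 211 on the long arm up to ABL1 and 37 from ABL1 on had DMSO reads alone (35.0%, 31.5% and 22.4%, against 31.7% of all windows), and 6, 9 and 2 untreated reads alone (1.67%, 1.35% and 1.21%, against 1.66%). The DMSO library is the deeper of the pair, and the short and long arm shares lie near those of all windows. After NTRK2 the most DMSO reads against 0 were 60 in AL807752.7, beside PTGDS, then 43 in AL355140.1, 38 in KLHL9 and 36 in AL596244.1. KCNT1 had 21, ARID3C and CBWD6 18 each and DBH-AS1 16. In the opposite direction no window had more than 3 untreated reads against 0, the number found in BX255925.4. AL512643.1 had 2, and ACER2, AL160270.1, AL354861.3, AL136084.3, AL358074.1 and AL354761.1 had 1 each.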

How the data were processed

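The authors counted reads over windows of 6000 bases around gene starts; the submitters' processing notes name Bowtie2 2.3.5 as aligner, featureCounts 2.0.1 as counter and hg38 as build. The annotation and strand setting are not given in the sources used here. The deposited counts were used as they are. The authors' TPM columns in the same deposited table were not used, because with windows of 1 length they equal CPM.

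Unshared bases were computed from the windows' coordinates, whatever the strand. All 1154 windows without any held 0 reads, so reads in shared bases are absent from the counts. A window needed 200 unshared bases for a level. Density is pooled reads over pooled unshared kb, with exact Poisson intervals, Clopper-Pearson intervals for ratios and shares. Ratios between libraries used TMM factors from edgeR 4.0.16 (R 4.3.3) and a prior of 0.5 reads. Sequence and gene names came from RefSeq tables of GRCh38.p14. Functions were tested on simulated data. Python 3.11.15 with scipy 1.17.1 was used.

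The windows and the 17 gene lists were chosen with earlier results of these data known. In each class the text names the 6 densest windows (mean of both libraries' densities over their library density), the 4 highest and 4 lowest ratios and the 3 with most reads against 0. It also names windows at the class borders and from ABL1 to NUP214, and from each list the 4 densest members and the extreme ratios, or all members of lists of 8 or fewer. Some of the 140 windows this selects are not reported here. Alternatives covered overlap, unshared length, gene type, single windows, scaling, floor, prior count and thinning.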

Additional observations from a re-analysis of the deposited data

Results flagged for a closer look

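Reads outside the levels above were found in the chromosome 9 windows with under 200 unshared bases. These 142 windows held 216 DMSO reads and 61 untreated reads, and 48 of them had a read. RPL35, a ribosomal protein gene, had the most, 36 with DMSO and 10 untreated in 148 unshared bases. They are given because no comparison above uses them. Samples within a group could not be compared with 1 library per treatment.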

How the results depend on the processing

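No paired analysis was possible because untreated and DMSO cells gave 1 library each; for the same reason no library was left out. Values are in the order short arm, long arm up to ABL1, ABL1 and beyond; equal length before the border, leaving out ABL1 to FAM78A, the segment to FAM78A and gene lists without their window of most DMSO reads were chosen after seeing the data. The cause of the shifts was not tested, except that floors, thinning and higher read minimums change what is counted. The order of the 3 classes was the same under each setting given for their density.

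Reads per kb were 1.51, 3.09 and 9.81 untreated and 7.48, 14.7 and 43.3 with DMSO in windows that share no base; 1.51, 3.19 and 9.53 and 7.34, 14.9 and 42.1 without the window of most reads; 2.11, 4.15 and 11.7 and 11.4, 21.6 and 52.1 in protein-coding windows; and 0.167, 0.333 and 2.47 and 0.849, 2.50 and 14.2 as medians. The ratio of ABL1 and beyond to the long arm, untreated and DMSO, was 2.99 and 2.83 without the top windows, 2.83 and 2.42 in protein-coding windows, 7.41 and 5.67 by medians, 1.53 and 1.43 against an equal length and 2.91 and 2.74 without ABL1 to FAM78A. With DMSO it was 2.89 without pericentromeric families and 2.87 after thinning. The ratio of ABL1 to NUP214 over beyond was 2.53 and 2.58 in windows that share no base and 2.04 and 1.91 drawn to FAM78A. It reversed to 0.902 and 0.931 without the top windows and to 0.195 in both libraries by medians.

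Windows with at least 10 reads made up 19.2%, 30.5% and 44.8% untreated and 34.4%, 46.6% and 66.1% with DMSO. With DMSO, windows with a read were 59.7%, 66.7% and 81.2% after thinning, and 88.5% and 92.2% on the short and long arm in windows that share no base, against 84.7%, 88.5% and 94.5%. Windows past 2-fold higher and lower numbered 12 and 8, 38 and 33, and 19 higher at 1 CPM and 20 reads; 95 and 72, 173 and 148, and 42 and 42 with any read; 12 and 3, 35 and 21, and 16 and 16 at 1.5-fold; without centring 0 lower, 24 and 4, and 15 and 3; and 5 and 3 from ABL1 on in windows that share no base. The share of all windows past a fold was taken at the main setting only, so these counts are not compared with the genome. With any read the median ratio from ABL1 on was -0.27, against 0.03. Other scalings could not test these counts, since ratios relative to the median window cancel a shift of all windows. Depth limits single windows: 1 untreated read in 6000 bases is 0.167 reads per kb.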
